A study of Bos taurus with 6 samples.

Results

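Expressed sequence tags (ESTs) are single-pass reads of cDNA clones, and UniGene gathered tags of the same gene into clusters. The authors listed 163 entries with a gene identifier and 69 such clusters as different between the muscle of Angus and Luxi cattle. The clusters were taken by an identifier that starts with gnl|UG. The clusters have no gene symbol, so they were grouped by the protein named in the authors' similarity search of the nr database. That search named a protein, or gave an unnamed match, for 30 clusters and nothing for 39.

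RNA was sequenced from muscle of 3 Angus cattle, a beef breed, and 3 Chinese Luxi cattle, all 18 months old. The labels give neither the muscle, the sex, nor any treatment, and they record no genotype beyond breed. The deposited values are means over the 3 libraries of a breed and carry no SD. Reads per library were worked back from those means, at recovered depths of 5429317 to 5736365 reads in Angus and 5799075 to 6047227 reads in Luxi, but not tied to named animals. The libraries of a breed are told apart by depth, as its deepest, its middle and its shallowest. Where several sets of reads fit the means, the range over all of them is given. Of 17 skeletal muscle markers, 2 (MYH4 and MYL3) had a row in this list of differing genes, so the tissue label was not tested by it. Both were higher in Angus, with a summed mean of 393 RPKM in Angus and 140 RPKM in Luxi. Of these sums MYL3 alone made up 365 RPKM in Angus and 139 RPKM in Luxi, so nearly all of the Luxi sum was MYL3. Of 5 adipocyte markers 2 were listed, both higher in Angus, with a summed mean of 18.8 RPKM in Angus and 5.14 RPKM in Luxi. Of 7 immune cell markers 1 was listed, at 15.3 RPKM in Luxi and at 0 in Angus, and the part of these cells in the results was not tested. In bulk tissue, fewer cells of a type and less RNA per cell cannot be told apart.

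The clusters reach several parts of muscle biology. Slow fibres contract with myosin-7, the beta heavy chain, and the sarcomere of muscle fibres also holds LIM domain and kelch proteins. The oxidative enzymes of slow fibres include subunits encoded by the mitochondrial genome, while 6-phosphofructokinase and hexokinase 2 feed glycolysis. Other clusters matched class I major histocompatibility complex (MHC) antigens, which present peptides on nearly all nucleated cells and are highly polymorphic, a core histone, and proteins of endogenous retroviruses, which are remnants of old infections carried in the genome.

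Every cluster had passed the authors' filter, as had 100% of the list, so the breed difference itself is described here and not tested again. Every listed ratio was at least 2-fold, and the largest listed FDR was 9.67e-04. Of the 69 clusters, 43 were higher in Angus and 26 in Luxi. Over all listed entries 63.4% were higher in Angus and 36.6% in Luxi, against 62.3% and 37.7% of the clusters, so the direction of the clusters was near that of the list. Of the clusters with reads in both breeds, 34 had more in Angus, by a median of 2.72-fold, with a range of 2.05-fold to 31.6-fold. Another 16 had more in Luxi, by a median of 2.97-fold, with a range of 2.12-fold to 6.86-fold. Over all entries those medians were 2.67-fold and 2.62-fold. The median of the mean RPKM in the higher breed was 24.9 for clusters higher in Angus and 12.9 for clusters higher in Luxi. RPKM scales reads to sequence length and library depth. It does not correct for the part of a transcript that a cluster covers or for reads shared between rows. Levels of different clusters can therefore be compared only roughly. The clusters were short, with a median of 782 bases (180 to 1419) against 1952 bases for entries with a gene identifier, and 15 of 69 had a Gene Ontology term against 133 of 163.

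**Figure D1:**
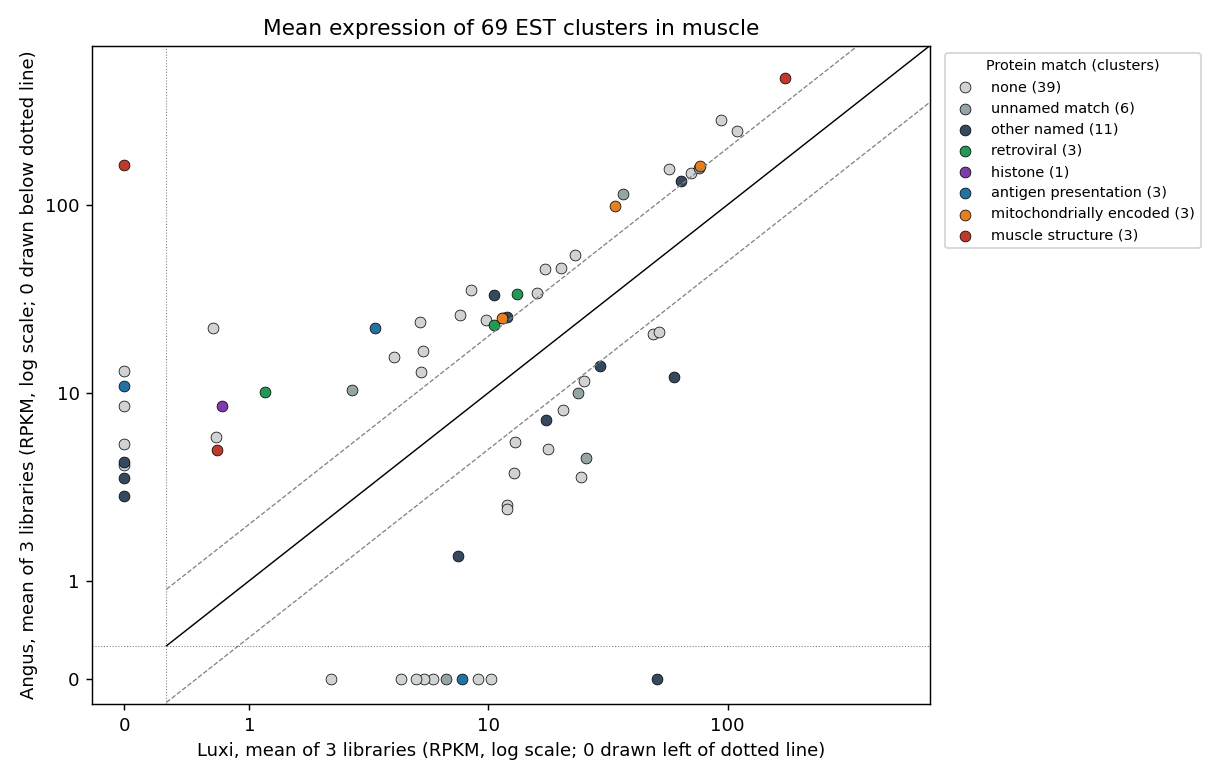
Mean expression of the 69 clusters in Luxi (horizontal) and Angus (vertical), in RPKM on log scales, with clusters listed at 0 drawn beyond the dotted lines. Each point is 1 cluster coloured by its protein match, the solid line marks equal means and the dashed lines 2-fold. The muscle structure cluster at 0 in Luxi is the myosin-7 match at 163 RPKM in Angus, and the point at the upper right is the FHL1 match.

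By protein match, the 3 clusters for mitochondrially encoded proteins, the 3 retroviral clusters, the 1 histone cluster and the 3 clusters whose match contained a muscle structure word were all higher in Angus. The 3 antigen presentation clusters split, with 2 higher in Angus and 1 in Luxi. Another 11 clusters had a different named protein, 6 of them higher in Angus and 5 in Luxi, and 6 matched an unnamed or hypothetical protein, 3 in each direction. Of the 39 clusters without a match, 22 were higher in Angus and 17 in Luxi. Each group is small and its counts are given against the 63.4% of all entries that were higher in Angus.

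Among the muscle proteins, the cluster matched to myosin-7 (Bt#S29312610) stood at the extreme of the list. By the authors' deposited table it stood at 163 RPKM (1197 reads per library) in Angus and was listed at 0 in Luxi. All 3 Luxi libraries thus held 0 reads. The cluster covers 1322 bases, and whether Luxi muscle had myosin-7 reads outside it was not tested. Whether reads were shared between this cluster and other myosin genes was not tested either. Set against the 3 reads over a breed that a count of 0 allows, its level was at least 1273-fold higher in Angus. The 3592 Angus reads could be spread in many ways, with 3 to 1591 in the deepest, 0 to 3205 in the middle and 384 to 2001 in the shallowest library. Whether every Angus animal had reads was therefore not determined, but without any single Angus library the level stayed at least 211-fold higher than the Luxi limit. MYL3 (gene identifier 618352) is the light chain that slow fibres pair with this heavy chain. It stood at 365 RPKM in Angus and 139 in Luxi by the authors' deposited table, well above 0 in the breed where the cluster had no read. Its log2 ratio of Angus over Luxi could be as low as 0.10 without the middle Angus library.

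An FHL1 match (Bt#S53176298), a LIM domain protein that binds the sarcomere and titin, had the highest level of any cluster. It stood at 475 RPKM in Angus and 174 in Luxi by the authors' deposited table, a 2.73-fold excess in Angus. Its Angus reads numbered 658 to 2843 in the shallowest library and could lie between 48 and 4379 in the middle one, and its log2 ratio of Angus over Luxi ran from -0.85 to 2.02 without the middle Angus library. A cluster matched to KBTBD10 (Bt#S34377219), a kelch protein of the sarcomere that the word list did not catch, stood at 133 RPKM in Angus and 64.0 in Luxi by the authors' deposited table, a 2.08-fold excess in Angus. Leaving out the middle Angus library left its direction undetermined too, with a log2 ratio of -0.64 to 1.64. The 3 clusters of the word list included BANK1 (Bt#S18954830), an adaptor of B cell receptor signalling caught by the word ankyrin, which is no muscle protein and is described with the signalling matches.

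Both clusters for glycolytic enzymes were higher in Luxi. The cluster matched to PFKM (Bt#S24132441), the muscle form of 6-phosphofructokinase and a control point of glycolysis, stood at 50.9 RPKM in Luxi and was listed at 0 in Angus by the authors' deposited table. All 3 Luxi libraries had reads in every solution (2 to 265, 1 to 696 and 36 to 468 from deepest to shallowest). Against the limit of 3 reads the level was at least 18.2-fold higher in Luxi even with any single Luxi library left out. The cluster covers 816 bases and is represented by a 3' tag. A count of 0 on it does not show that PFKM was absent from Angus muscle, which was not tested. The hexokinase 2 match (Bt#S24511327), which traps glucose in muscle cells as glucose 6-phosphate, stood at 29.2 RPKM in Luxi and 13.8 in Angus by the authors' deposited table, a 2.12-fold excess in Luxi. The entry HK2 (gene identifier 788926) stood at 32.8 RPKM in Luxi and 14.8 in Angus by the authors' deposited table, a 2.21-fold excess in Luxi. Both rows thus had like levels and a like ratio, and whether reads were shared between them was not tested. Leaving out the middle Luxi library put the log2 ratio of Angus over Luxi at -1.58 to 1.18 for the cluster and -1.73 to 0.60 for the entry, so neither direction was determined there. PFKFB4 (gene identifier 534928), which makes the activator of phosphofructokinase, stood at 154 RPKM in Luxi and 66.3 in Angus by the authors' deposited table, and its log2 ratio could reach 0.17 without the shallowest Luxi library.

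The 3 clusters for proteins encoded by the mitochondrial genome were higher in Angus, each by 2-fold to 3-fold. The match to NADH dehydrogenase subunit 1 (Bt#S29301100), a membrane subunit of complex I, stood at 98.0 RPKM in Angus and 33.9 in Luxi by the authors' deposited table, 2.89-fold higher. The match to cytochrome c oxidase subunit I (Bt#S11895256), the catalytic core of complex IV, was 2.10-fold higher in Angus. It stood at 161 RPKM in Angus and 76.5 in Luxi by the authors' deposited table. Its nearest protein was that of Sorex unguiculatus, not of cattle, and whether its reads came from the cattle mitochondrial genome was not tested. The match to NADH dehydrogenase subunit 4L (Bt#S29312686), whose nearest protein was that of Bos indicus, stood at 25.0 RPKM in Angus and 11.4 in Luxi by the authors' deposited table, 2.20-fold higher. Transcripts of 1 mitochondrial genome are made together, so these 3 clusters, if all come from it, are not independent of each other.

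In all 3 mitochondrial clusters the libraries of the breeds overlapped in every read solution. For subunit 1, the shallowest Angus library held 1160 to 1714 reads, 50.8% to 75.0% of the breed's total, while the deepest Angus library held 26 to 570 and the deepest Luxi library 337 to 530. Without that shallowest Angus library the log2 ratio of subunit 1 fell to between 0.06 and 1.07. For cytochrome c oxidase subunit I the shallowest Angus library held 493 to 985 of 1468 reads and the deepest Luxi library 389 to 512 of 755. Its log2 ratio without the shallowest Angus library had a highest value of 1.05, and its lowest value touched 0. For subunit 4L the shallowest Luxi library held 144 to 190 of 223 reads, which left 0 to 28 in the deepest and 5 to 79 in the middle one. Its log2 ratio ran from -0.74 to 1.56 without the middle Angus library. Of the complex I subunits encoded in the nucleus, NDUFB4 stood at 18.4 RPKM in Angus and 7.62 in Luxi, and NDUFA3 34.4 and 15.9 RPKM, by the authors' deposited table. NDUFB4 had a lowest log2 ratio of -0.58 when the middle Angus library was left out, so its direction was not determined there. The lowest for NDUFA3 was 0.14, without the shallowest Angus library.

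The MHC class I clusters contained a pair with opposite patterns. Cluster Bt#S11925441 stood at 10.9 RPKM in Angus and was listed at 0 in Luxi by the authors' deposited table. From deepest to shallowest, Angus held 66 or 67, 2 to 4, and 40 or 41 reads, so 1 Angus animal had almost none while the other two carried nearly all. Cluster Bt#S19021302 stood at 7.75 RPKM in Luxi and was listed at 0 in Angus by the authors' deposited table. Luxi held 25, 44 and 21 reads, so every Luxi library had reads counted on this cluster. Against the limit of 3 reads these clusters were at least 38.6-fold higher in Angus and at least 28.3-fold higher in Luxi.

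The third MHC class I cluster, Bt#S39664586, was present in both breeds, at 22.2 RPKM in Angus and 3.35 RPKM in Luxi by the authors' deposited table, a 6.63-fold excess in Angus. The Luxi libraries held 13, 3 and 25 reads, and the Angus libraries 3 to 58, 37 to 148 and 104 to 160. With each library left out in turn its lowest log2 ratio was 1.85, still above 2-fold. Class I genes are near copies of each other and their alleles differ between animals, so reads of one allele may have been counted on another cluster, and the 3 values are uncertain to that extent. The class II entry BOLA-DQA3 (gene identifier 282536), an antigen-presenting chain, had the pattern of the second cluster, at 15.3 RPKM in Luxi and listed at 0 in Angus by the authors' deposited table.

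The histone cluster (Bt#S29298780), matched to histone H2B, a core protein of the nucleosome, stood at 8.46 RPKM in Angus and 0.769 in Luxi by the authors' deposited table, a log2 ratio of 3.46. From deepest to shallowest, Angus held 6, 34 and 144 reads and Luxi 4, 5 and 9. The deepest Angus library was within the Luxi range, and the shallowest held 78.3% of the Angus reads. Without the shallowest Angus library that ratio was 1.81. The entry HIST1H2AA (gene identifier 506900), a histone H2A, had the same order of its Angus libraries, with 25 to 27, 70 to 74 and 140 to 142 reads, against 9, 6 and 15 in Luxi. Unlike the cluster, that entry had every Angus library above every Luxi library. Histone genes are near copies of each other, so the counts of both rows are uncertain between family members.

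All 3 retroviral clusters were higher in Angus, but no library led all of them. The cluster for a pol protein (Bt#S55119233), the polymerase region of an endogenous retrovirus, stood at 33.5 RPKM in Angus and 13.2 in Luxi by the authors' deposited table. The deepest Angus library held 695 to 699 of 777 reads, 89.4% to 90.0%, and the others 53 to 61 and 21 to 25. The deepest Luxi library held 130 to 197 reads, more than either of those 2 Angus libraries. Without the deepest Angus library the cluster was higher in Luxi, with a log2 ratio of Angus over Luxi between -1.34 and -1.27, against 1.35 in full.

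The cluster matched to an envelope polyprotein (Bt#S39646641), the surface protein of such viruses, stood at 10.04 RPKM in Angus and 1.16 in Luxi by the authors' deposited table. Here the shallowest Angus library carried the reads, with 85 or 86, against 2 or 3 in the deepest and 7 to 9 in the middle one, and the Luxi libraries held 1, 7 and 4. Scaled to depth, the deepest Angus library thus lay below the middle and shallowest Luxi libraries, and the middle Angus library lay just above the middle Luxi one. Without the shallowest Angus library the log2 ratio was 0.38 to 0.53, against 3.11 in full. The cluster with a reverse transcriptase-like match (Bt#S35968087) stood at 23.0 RPKM in Angus and 10.5 in Luxi by the authors' deposited table. Of its 287 Angus reads the deepest library held 3 to 59, the middle 64 to 177 and the shallowest 107 to 164, so the deepest Angus library was the lowest. With each library left out in turn its lowest log2 ratio was 0.35, so it stayed higher in Angus but did not keep 2-fold in every solution. Endogenous retroviruses exist in many copies, so reads of other copies may have entered these counts.

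**Figure D2:**
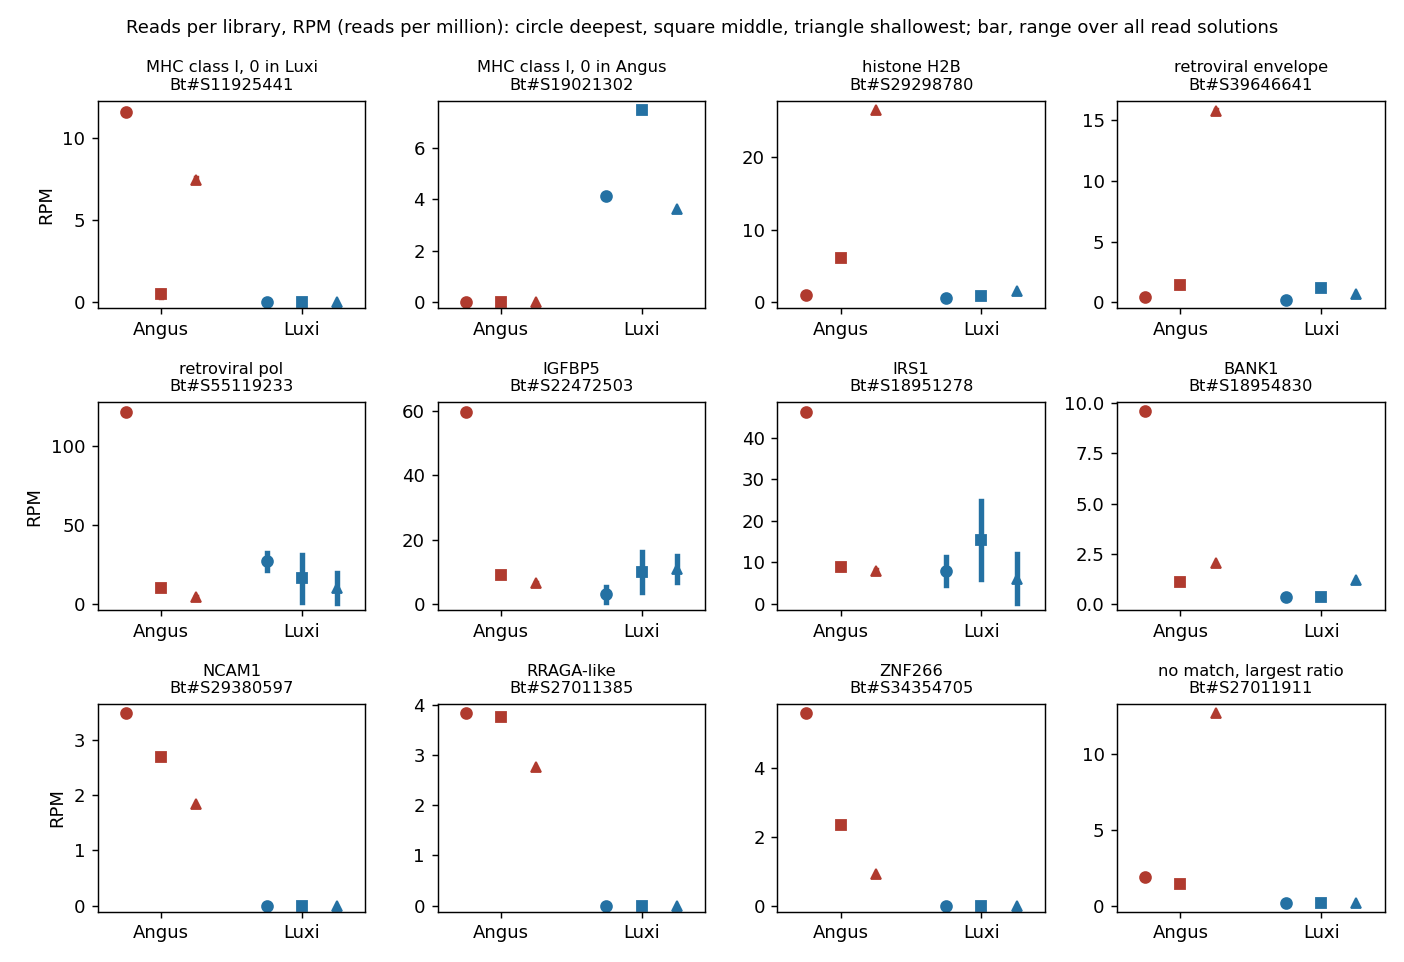
Reads scaled to library depth (RPM) in each of the 3 Angus (red) and 3 Luxi (blue) libraries for 12 clusters, with a circle for the deepest, a square for the middle and a triangle for the shallowest library. Symbols stand at the middle of the range over all read solutions and bars show that range. The pol protein, IGFBP5, IRS1 and BANK1 clusters are each led by the deepest Angus library, and the histone and envelope clusters by the shallowest.

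Growth and signalling matches included several clusters carried by the deepest Angus library. The cluster matched to IGFBP5 (Bt#S22472503), which binds insulin-like growth factors, stood at 33.2 RPKM in Angus and 10.5 in Luxi by the authors' deposited table, 3.15-fold higher. Its Angus libraries held 341 to 343, 49 to 53 and 34 to 36 reads, and its Luxi libraries 4 to 32, 22 to 96 and 40 to 86, so the middle and shallowest Angus animals were within the range of Luxi. With the deepest Angus library left out, its log2 ratio was between -0.045 and -0.013. The entry IGFBP5 (gene identifier 404185) had 505 to 616 of its 730 Angus reads in the same library.

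The IRS1 match (Bt#S18951278), which relays insulin and IGF receptor signals, stood at 25.4 RPKM in Angus and 11.9 in Luxi by the authors' deposited table, a 2.13-fold excess in Angus. Its Angus libraries held 263 to 265, 47 to 51 and 42 to 44 reads. Without the deepest Angus library the direction turned, with a log2 ratio between -0.25 and -0.22. BANK1 had 55, 6 and 11 Angus reads and 2, 2 and 7 Luxi reads, and stood at 4.96 RPKM in Angus and 0.734 in Luxi by the authors' deposited table. Its middle Angus library lay below the shallowest Luxi library, and its log2 ratio without the deepest Angus library was 1.31, against 2.76 in full.

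Other clusters of this kind separated the breeds by presence of reads. The cluster matched to NCAM1 (Bt#S29380597), a cell adhesion molecule of nerve and regenerating muscle fibres, had 20, 15 and 10 Angus reads and 0 Luxi reads, at least 15.8-fold higher in Angus against the limit of 3 reads. The entry NCAM1 (gene identifier 281941) was not absent from Luxi, with 5.17 RPKM in Angus and 2.46 RPKM in Luxi by the authors' deposited table and 188 Luxi reads, though its log2 ratio could be as low as -0.09 without the middle Angus library. The match similar to Rraga (Bt#S27011385), a GTPase that signals amino acids to mTORC1, had 22, 21 and 15 Angus reads and 0 in Luxi, at least 20.4-fold higher in Angus. The ZNF266 match (Bt#S34354705), a zinc finger protein, had 32, 13 and 5 Angus reads and 0 in Luxi, at least 17.4-fold higher. Its name is less certain, since the similarity search gave an E-value (matches this good expected by chance) of 3.5e-07. That of the NCAM1 match was 9.8e-121. In all 3 clusters every Angus library was above every Luxi library.

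The other named matches were higher in Luxi. A cluster similar to ribosomal protein L27a (Bt#S39616032), a component of the large ribosomal subunit, stood at 59.5 RPKM in Luxi and 12.2 in Angus by the authors' deposited table, 4.90-fold higher. With each library left out in turn its log2 ratio of Angus over Luxi was no higher than -1.52. Ribosomal protein genes have many processed copies, so its reads may belong to several of them. A RAP2B-like match (Bt#S40977599), a small GTPase of the RAS family, stood at 17.4 RPKM in Luxi and 7.12 in Angus by the authors' deposited table, and leaving out the middle Luxi library put its log2 ratio anywhere from -1.86 to 2.31. A GRound-Like match (Bt#S36117619) had 62 to 85 of its 110 Luxi reads in the shallowest library and 5, 8 and 6 in the Angus libraries, and was 5.52-fold higher in Luxi from the RPKM of the authors' deposited table. Its log2 ratio without the shallowest Luxi library was -1.84 to -0.87.

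Clusters without a named protein held the largest ratio of all listed entries with reads in both breeds. Bt#S27011911, a cluster of 241 bases, stood at 22.2 RPKM in Angus and 0.702 in Luxi by the authors' deposited table, 31.6-fold higher. Its Angus libraries held 11, 8 and 69 reads and its Luxi libraries 1, 1 and 1. Every Angus animal was above every Luxi animal, although the shallowest Angus library held 78.4% of the reads and the log2 ratio without it was 3.31, against 4.98 in full. Bt#S24132823 was 8.05-fold higher in Angus from the RPKM of the authors' deposited table, with 55, 1 and 21 reads against 4, 1 and 5, so its middle Angus library was as low as Luxi. Bt#S35463583, the shortest cluster at 180 bases, had 18, 29 and 58 Angus reads against 8, 12 and 7 in Luxi, and the breeds did not overlap. The log2 ratio of Bt#S24132823 was 1.84 with the deepest Angus library left out, against 3.01 in full, and that of Bt#S35463583 was 1.45 with the shallowest left out, against 2.06. Bt#S29359206 stood at 23.9 RPKM in Angus and 5.20 in Luxi by the authors' deposited table, and its log2 ratio of 2.20 could fall to 0.03 without the middle Angus library. Bt#S29413572 stood at 10.4 RPKM in Angus and 2.69 in Luxi by the authors' deposited table, and its log2 ratio of 1.95 fell to between 0.94 and 1.02 without the shallowest Angus library.

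The most abundant clusters without a named protein were also higher in Angus. Bt#S34373694 stood at 282 RPKM in Angus and 93.7 in Luxi, Bt#S26176322 248 and 109, Bt#S53174580 157 and 76.2, Bt#S29391277 154 and 56.7, and Bt#S29429055 148 and 70.1, all as mean RPKM by the authors' deposited table. Leaving out the middle Angus library left the direction of 4 of these 5 undetermined, Bt#S29391277 being the exception, with a lowest log2 ratio of 0.23 there. In Bt#S29429055 the deepest Luxi library held 818 to 955 of 1187 reads, and the breeds overlapped in every solution.

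On the Luxi side, clusters without a named protein had lower levels. Bt#S35928065 stood at 24.3 RPKM in Luxi and 3.55 in Angus by the authors' deposited table, 6.86-fold higher, the largest ratio in favour of Luxi among entries above 0 in both breeds. Bt#S22476321 was 5.73-fold, Bt#S29308785 4.99-fold, Bt#S14839551 4.72-fold and Bt#S11950106 3.55-fold higher in Luxi, from the RPKM of the authors' deposited table. Leaving out the middle Luxi library could raise the log2 ratio of Angus over Luxi to -0.99 for Bt#S35928065, -0.65 for Bt#S22476321, -0.52 for Bt#S29308785 and -1.51 for Bt#S14839551. For Bt#S11950106 it could reach 0.60, so the direction of that cluster was not determined there. In Bt#S29308785 the Angus libraries held 8, 14 and 17 reads and no Luxi library held under 19, so every Luxi animal was above every Angus animal. Bt#S11950106 had 40, 2 and 4 Angus reads, so 1 Angus animal reached the range of Luxi. The highest levels were 51.8 RPKM for Bt#S34361521, 48.8 for Bt#S18948098 and 25.0 for Bt#S29376117 in Luxi, against 21.0, 20.6 and 11.5 RPKM in Angus, by the authors' deposited table. With the middle Luxi library left out their log2 ratios could reach 0.0095, 0.33 and 0.81, so the direction of all 3 was undetermined there.

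Clusters at 0 in 1 breed made up 19 of 69 (27.5%), against 20.3% of all entries and 28 of 163 entries with a gene identifier. Of these, 9 were at 0 in Luxi and 10 at 0 in Angus. In all 10 clusters at 0 in Angus every Luxi library had reads, and in 7 of the 9 at 0 in Luxi every Angus library did, the other two (myosin-7 and Bt#S39611141) not being determined. Without a named protein, Bt#S53253244, Bt#S27088439 and Bt#S39668002 had the highest levels in Luxi, at 10.2, 9.05 and 6.66 RPKM by the authors' deposited table, and Bt#S27088439 had 44, 38 and 22 Luxi reads. Bt#S39611141, Bt#S11963398 and Bt#S25564250 had the highest in Angus, at 13.1, 8.53 and 5.32 RPKM by the authors' deposited table. Bt#S11963398 had 36, 39 and 7 Angus reads and Bt#S25564250 had 2, 23 and 27, so a single animal was low in each. With any library of the higher breed left out, 18 of the 19 stayed at least 2-fold higher against the limit of 3 reads. The exception was Bt#S39611141, whose middle Angus library held 44 to 157 of 159 reads and whose bound without it was 1.09-fold.

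Across the clusters, every library of the higher breed lay above every library of the other in 20 of 69, 17 of which were at 0 in 1 breed. That share, 29.0%, was near the 27.2% of all entries. In 21 clusters the breeds overlapped in every read solution, 30.4% against 25% of all entries, and 28 were not determined. In 12 clusters a single library supplied over 2/3 of the higher breed's reads in every read solution, 17.4% against 14.7% of all entries. In 21 clusters none did, and 36 were not determined, against 70 and 128 of all entries, so both shares are lower limits. The deepest Angus library led 7 of these 12, among them pol protein, IGFBP5, IRS1 and BANK1. The shallowest Angus library led 3 (histone H2B, envelope and Bt#S27011911), the middle Angus library Bt#S24159433, and the deepest Luxi library Bt#S29292705. That last cluster had 250 to 267 of its 315 Luxi reads in 1 animal and was higher in Angus without it, with a log2 ratio between 0.42 and 0.84.

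**Figure D3:**
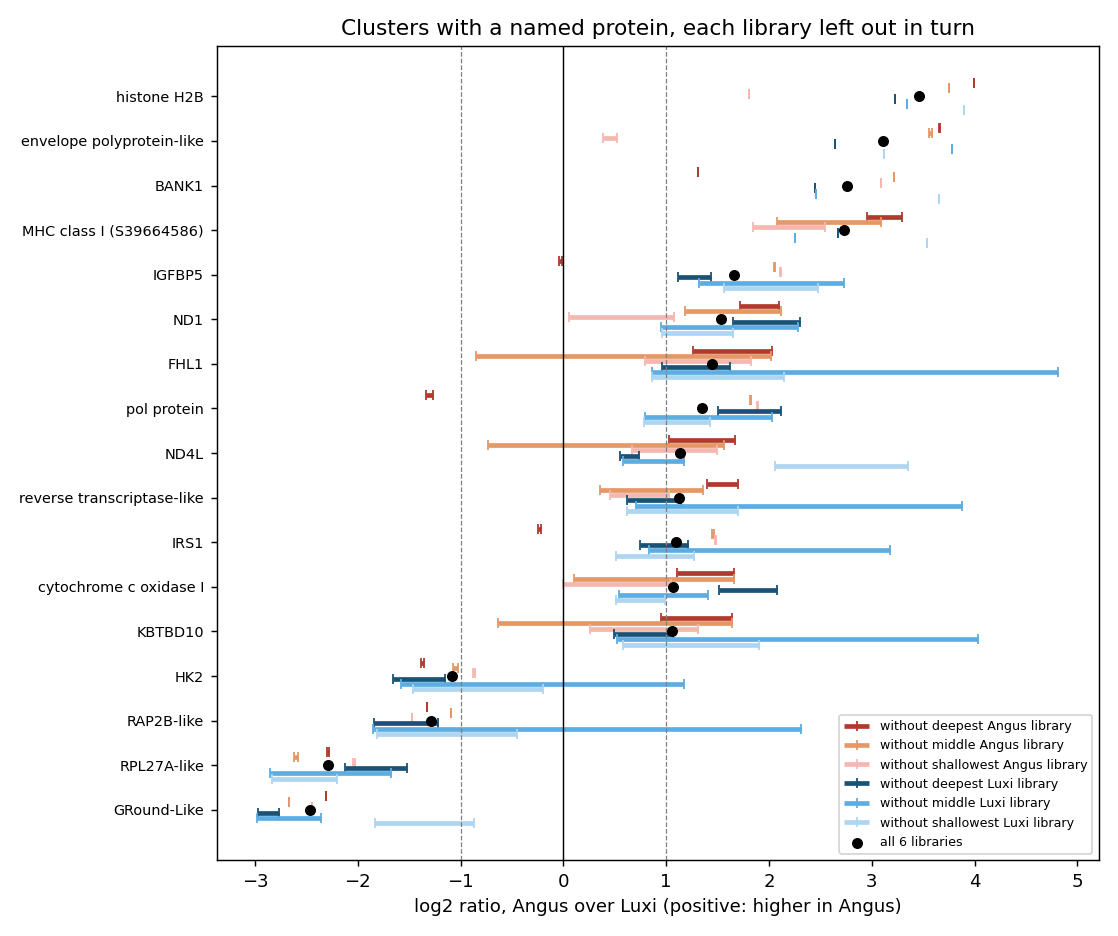
The log2 ratio of Angus over Luxi for the 17 clusters with a named protein and reads in both breeds. Black points use all 6 libraries, coloured bars give the range over all read solutions with 1 library left out, and dashed lines mark 2-fold. The IGFBP5, pol protein and IRS1 bars without the deepest Angus library lie below 0, while the histone, BANK1, MHC class I and RPL27A-like bars stay beyond 2-fold on the side of their point.

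At least 2-fold in the same direction was kept, whichever library was left out and in every read solution, by 27 of 69 clusters (39.1%), against 33.2% of all entries, with entries at 0 set against the limit of 3 reads. Of the 27, 18 were at 0 in 1 breed, where the direction cannot change. The 9 with reads in both breeds were the MHC class I cluster Bt#S39664586, histone H2B, BANK1, the ribosomal protein L27a match, and Bt#S27011911, Bt#S24132823, Bt#S35463583, Bt#S39636147 and Bt#S14839551, which have no match. The direction turned without 1 library, in every read solution, in 4 clusters, 5.80% against 4.31% of all entries. They were pol protein, IRS1 and IGFBP5 without the deepest Angus library and Bt#S29292705 without the deepest Luxi library. In 44 of 69 clusters, and in 131 of all entries, the direction held whichever library was left out and in every read solution. The remaining clusters and entries were not determined, so the shares that turned are lower limits.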

How the data were processed

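One deposited table was used. It holds 1 value per breed for each listed entry, and 0 columns of per-sample values were left unused. The authors deposited a mean read count per breed, since 3 times each value was whole within rounding, and an RPKM, per the file headers, with 0.001 written where the count was 0. The deposited log2 ratio, p-value and FDR are the authors'. The labels and headers name no aligner, reference, strandedness or test (not given in the sources used here). A test of 2 Poisson counts on the breed means gave values within 5% of the deposited ones for 37 of 42 clusters with p above 1e-10, so the spread between animals did not enter it. The 3 libraries of a breed come from separately labelled animals.

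Reads per library were found by a branch-and-bound search (Python 3.11.15, numba 0.67.0) for 3 depths per breed at which every entry had a whole-number solution within the rounding of its RPKM to 6 digits. Depths were fixed to within 5 reads, and 57 entries (17 of 69 clusters) had a single solution in all 6 libraries. On 4 simulated tables the solutions held the true reads of 834 of 834 entries, and 326 of 326 single solutions were right. These tables were made with the same means and rounding that the search assumes. They were searched more coarsely and without the last step that discarded solutions. They thus checked the search, and how the authors made their values was not tested. Reads carry no molecular identifiers, so limits cover counting error alone. No test was made of the breed contrast, which had chosen the entries, and 3 against 3 cannot go below p = 0.10 in an exact permutation test. The members, protein word lists and naming rule were chosen with earlier results of these data known. The rule named every cluster with a named protein and, of the others, the 5 largest folds, the 5 highest levels and the 3 highest among those at 0, for each direction; other clusters named were chosen after their values were seen. Of 17 matches with a RefSeq protein accession, 4 were named by the RefSeq gene table of ARS-UCD2.0, and other names are the authors' text. Sequences of the clusters were not used here.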

Additional observations from a re-analysis of the deposited data

How the results depend on the processing

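The counts of 43 clusters higher in Angus and 26 in Luxi were the same with mean counts divided by depth and with 1 RPKM added to both breeds. They were also the same with at least 10 reads in the higher breed, a setting that could not change them because every cluster met it. At a deposited FDR of at most 1e-05 they were 27 and 17. With 1 library left out, the clusters at least 2-fold in every read solution numbered 23 to 31 in Angus and 14 to 25 in Luxi, clusters at 0 being set against 3 reads. The lowest of these, without the middle Angus and the middle Luxi library, came with 43 and 26 clusters that can still be 2-fold, so they reflect undetermined reads. The lower limit of the median fold ranged from 1.28 to 2.28 for Angus and from 1.44 to 4.34 for Luxi. With 1 library left out the lower limit of the log2 ratio ran from -0.045 to 2.11 for IGFBP5, -1.34 to 1.88 for pol protein and -0.25 to 1.48 for IRS1, the upper limit reached 2.73, 2.12 and 3.17, and it was the deepest Angus library whose absence turned the sign. Clusters of few reads have wide counting error, and those of many reads have many read solutions. No paired analysis was possible because the labels give no numbers that join an Angus animal to a Luxi animal and the columns carry none.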

Other observations

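The deposited descriptions name the cDNA library of many clusters. Loin or longissimus muscle was named for 10 clusters, 7 of them higher in Angus and 3 in Luxi, and their median RPKM in the higher breed was 49.9. They include the FHL1, myosin-7 and NADH dehydrogenase subunit 4L matches, and 5 of the 10 had no protein match. The 16 clusters from MARC or BARC libraries had a lower median of 11.4 RPKM, 9 were higher in Angus and 7 in Luxi, and 7 were at 0 in 1 breed. Fat was named for 3 clusters (1 higher in Angus and 2 in Luxi) and liver for 2, both higher in Angus, which were the histone H2B and NADH dehydrogenase subunit 1 matches. These groups were formed after the values were seen and carry no test. Among the 30 protein matches, the nearest protein was from Bos taurus in 15.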
